A study of Mus musculus with 4 samples.

Results

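The cells described here are fibroblasts of the aged mouse lung that carry RNA of Gabra3, Itgbl1, Mmp3, Ppp1r3a and Olfr1033. They were picked from single-cell RNA libraries by those genes. A barcode counted as a member if it held at least 1 UMI (1 counted RNA molecule) of the collagen gene Col1a2 and at least 1 UMI of at least 3 of the 5 genes. It also had to hold no UMI of Ptprc (leukocytes), Cdh5 (endothelium), Pi16 (adventitial fibroblasts) or Hhip (peribronchial fibroblasts and myofibroblasts). In all, 1363 of 68675 kept barcodes were members: 296 and 415 under BPTES, 312 and 340 under DMSO.

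The lungs came from male C57BL/6 mice aged 19 months that had been given BPTES, a small-molecule inhibitor of glutamine breakdown, or its solvent DMSO for 1 month. There were 2 libraries per group, and no label says how many animals a library holds, so p-values here measure only the spread between these libraries. Cells were released by 1 hour of Liberase digestion and sorted on CD45, and each library was made from a mixture of 20000 CD45-negative and 9000 CD45-positive cells. That mixture bears on any share taken of all barcodes.

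Fibroblasts of the lung build the collagen and elastic fibre scaffold and send growth factors to the epithelium. Alveolar fibroblasts, marked by Npnt, Tcf21 and Wnt2, line the gas-exchange walls. Adventitial fibroblasts, marked by Pi16, Dcn and Col14a1, sit in the cuffs around vessels and airways. Breakdown of glutamine gives glutamate, which feeds the tricarboxylic acid cycle and proline synthesis for collagen.

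Among the genes of the rule, Gabra3 encodes a subunit of the GABA-A receptor (GRCm38 chromosome X, 72432681 to 72656848, minus strand). Itgbl1 encodes a secreted integrin beta-like protein (chromosome 14, 123659971 to 123975618, plus strand). Mmp3 encodes stromelysin 1, a matrix protease (chromosome 9, 7445822 to 7455975, plus strand). Ppp1r3a encodes a subunit that directs protein phosphatase 1 to glycogen (chromosome 6, 14713977 to 14755274, minus strand). Olfr1033 belongs to the odorant receptor family (chromosome 2, 86020633 to 86045171, plus strand). Of the genes counted in the matrices, the annotation lists no other that overlaps any of these 5 loci. Overlap with genes not counted there was not looked at.

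The values that chose the cells are given as a description. Levels are in CPM, the UMIs of a gene as a part of all UMIs summed over the cells of a library, scaled to the same total in each. In members Gabra3 stood at 207 and 215 CPM with BPTES and at 241 and 225 CPM with DMSO. Itgbl1 stood at 292 and 270 against 282 and 307 CPM. Mmp3 stood at 536 and 657 against 344 and 619 CPM. The library DMSO replicate 1 was the lowest of the 4 for Mmp3, and likewise for Ppp1r3a (178 and 150 against 110 and 185 CPM). It was the lowest for Olfr1033 too, at 538 CPM, with 897 to 1041 CPM in the other 3.

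Free RNA in the droplets could give a cell a UMI of a gene it does not express, so the same genes were read in cells that should lack them. Gabra3 had a UMI in 74.3% to 81.1% of members per library, but in 0.333% to 0.537% of leukocyte barcodes (Ptprc positive) and 0.212% to 0.472% of endothelial barcodes (Cdh5 positive). For Olfr1033, the most widely detected of the 5, the shares were 89.7% to 92.2% of members, 2.29% to 3.41% of leukocyte barcodes and 1.47% to 1.87% of endothelial barcodes. Both sets left out barcodes with a Col1a2 UMI, and the endothelial set those with Ptprc too. Per library 1491 to 2333 barcodes held Col1a2 together with Ptprc or Cdh5 and were not counted. The shares may thus understate free fibroblast RNA. Median depth was 20690.5 to 25865 UMIs in members, 14026.5 to 16131 in leukocytes and 12197.5 to 13444.5 in endothelial cells.

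The cut at 3 genes fell on a continuous scale. Of the stromal cells with no Pi16 or Hhip UMI, 5231 had a UMI of none of the 5 genes, 2923 of 1 gene, 1104 of 2 genes, 659 of 3 genes, 491 of 4 genes and 213 of all 5. The stromal cells here are the 14366 barcodes with Col1a2 and without Ptprc or Cdh5. Median depth went up along the same scale, from 16946.5 to 17278 UMIs per library in cells with 0 genes to 22241 to 29508 UMIs in cells with 5 genes. Its part in who becomes a member was not tested beyond the thinning of counts given with the shares below.

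The exclusion of Pi16 cells also set an edge. Of 2465 stromal cells that passed the step on the 5 genes, 805 were left out for Pi16 and 297 for Hhip alone, together 44.7%. In the adventitial gate (Pi16 present, Hhip absent) 56.1% of cells passed the 5-gene step, and in the peribronchial gate (Hhip present, Pi16 absent) 13.3% did. Gabra3 stood at 171 to 226 CPM in the adventitial gate, a range that overlaps that of members, and at 31.2 to 41.1 CPM in the peribronchial gate. Itgbl1, Mmp3 and Olfr1033 likewise overlapped, with 245 to 287, 331 to 472 and 521 to 736 CPM in the adventitial gate. Ppp1r3a did not, with 3.37 to 26.0 CPM there against 110 to 185 CPM in members. Since the rule chose members, but not Pi16 cells, on these genes, the gap between them is shaped by the rule.

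**Figure D1:**
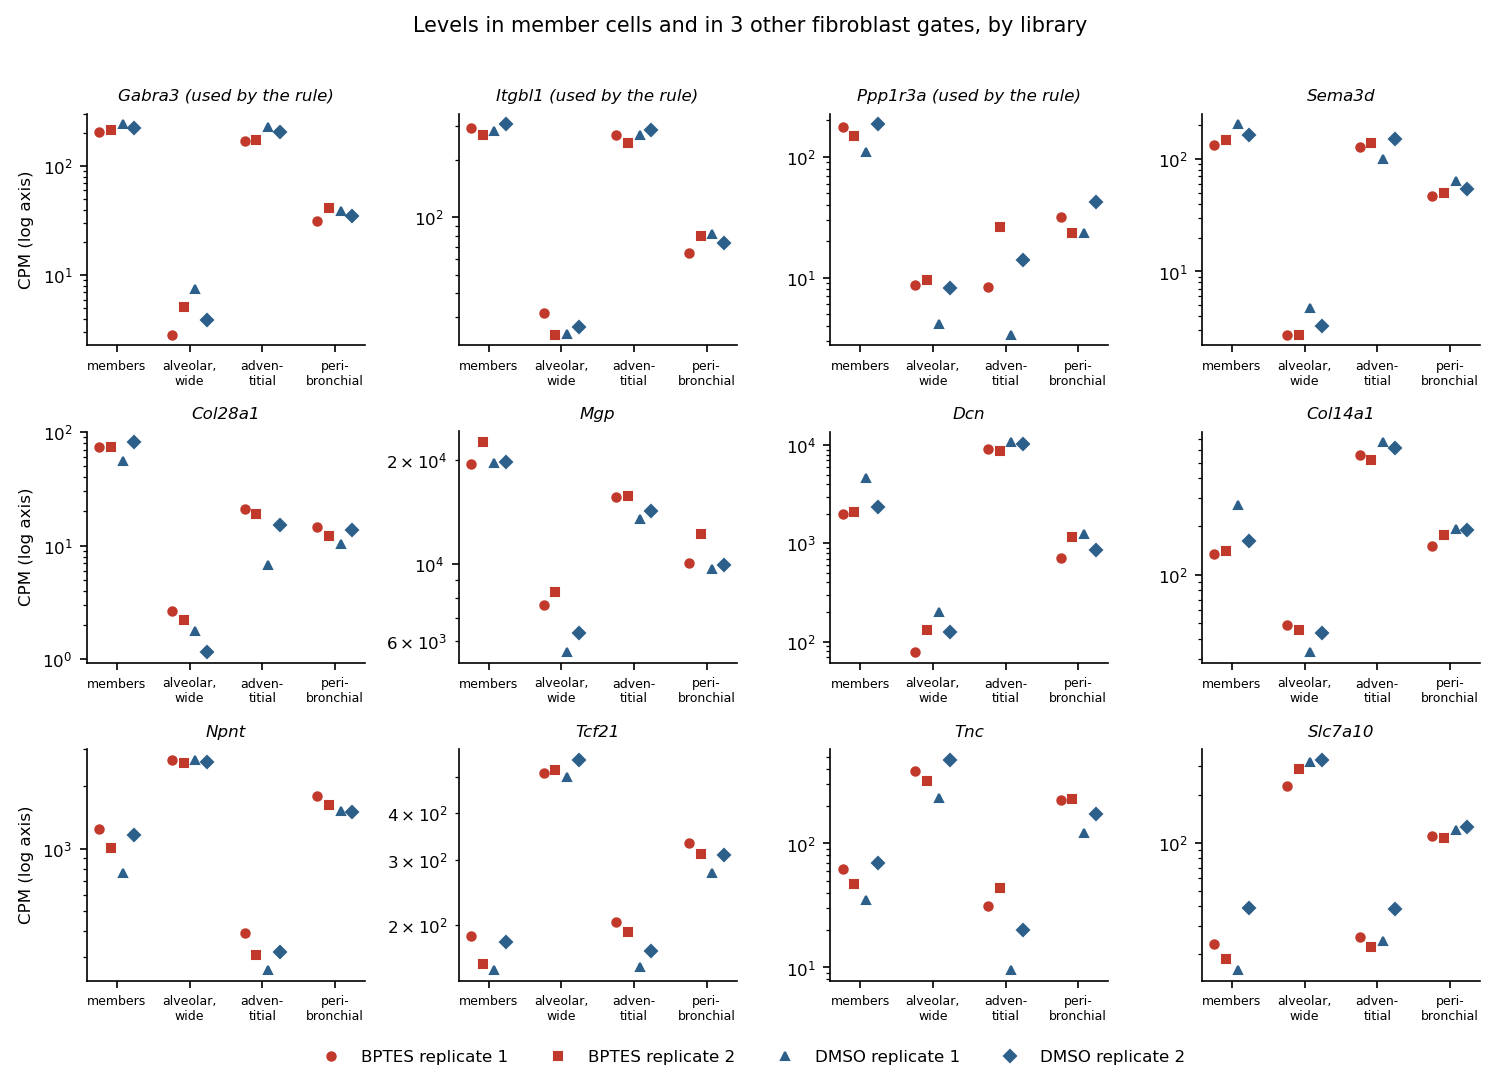
Levels in CPM (log axis) of 12 genes in members and in the wide alveolar, adventitial and peribronchial gates. Each point is 1 library, red for BPTES and blue for DMSO. The ranges of Gabra3 and Itgbl1 in the adventitial gate overlap those of members, Ppp1r3a and Col28a1 are highest in members, Dcn in members lies between the alveolar and adventitial gates, and Tnc and Slc7a10 helped to choose the alveolar gates.

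Members were set beside other fibroblasts with no test, since the rule had chosen them from the same cells. The alveolar gate as first defined took stromal non-members with both Slc7a10 and Scube2, or with at least 2 of Tnc, C7 and Robo2, but not both kinds (1764 cells). It left out 5878 cells that met both conditions. A wide alveolar gate of 7642 cells that includes them was added after the data had been seen. The adventitial and peribronchial gates held 1054 and 2241 cells. Of 9341 genes compared, 111 were at least 2-fold higher in members than in the first alveolar gate in all 4 libraries (1.19%) and 43 were lower (0.46%). Against the wide gate the shares were 4.77% and 2.05% of 9468 genes. Against the adventitial gate they were 1.43% higher and 1.8% lower of 9386 genes.

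In sums over all members, smooth muscle markers were higher than in both alveolar gates, while the fibroblast marker lists differed mainly from the wide gate. The number of members that held several smooth muscle markers is given below. Of 12 alveolar fibroblast markers, 8 were at least 2-fold lower in members than in the wide alveolar gate in all 4 libraries: Npnt, Tcf21, Wnt2, Slc7a10, Scube2, Ces1d, Fgfr4 and Itga8. Slc7a10 and Scube2 had helped to choose that gate. Against the first alveolar gate, where 121 of 1764 cells had entered by Slc7a10 with Scube2, only Fgfr4 was that much lower. None of the 12 was lower than in the adventitial gate, and Npnt and Limch1 were higher there by the same measure.

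Npnt encodes nephronectin, a basement membrane ligand of integrin alpha 8. It stood at 1237 and 1004 CPM in members of the BPTES libraries and 761 and 1166 CPM in the DMSO libraries, against 2591 to 2681 CPM in the wide alveolar gate and 260 to 393 CPM in the adventitial gate. The members thus lay between both gates in every library. Tcf21, a transcription factor of lung fibroblasts, stood at 186 and 157 against 151 and 180 CPM, against 502 to 558 CPM in the wide gate and 154 to 204 CPM in the adventitial gate. For Tcf21 the members overlapped the adventitial range. Pdgfra, the receptor that marks most lung fibroblasts, stood at 767 and 707 against 632 and 777 CPM.

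Smooth muscle markers were higher in the sums over all members. Of 6, 5 (Acta2, Myh11, Actg2, Cnn1 and Lmod1) were at least 2-fold higher than in both alveolar gates, and 5 (Des in place of Lmod1) than in the adventitial gate. At least 3 of the 6 were held by 17 and 46 BPTES members and 18 and 14 DMSO members. Once members with markers of other types were left out, the lowest ratio of Myh11, itself such a marker, to the wide gate was 0.046. Acta2, the smooth muscle actin, stood at 536 and 928 CPM in BPTES members and 152 and 434 CPM in DMSO members, against 17.0 to 87.1 CPM in the wide gate. Against the wide gate, 3 of 3 peribronchial markers compared (Aspn, Cdh4 and Wnt5a) and 4 of 7 inflammatory fibroblast markers (Cxcl12, Il6, Cxcl1 and Has1) were higher by the same measure. None of these 7 was so against the first alveolar gate.

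Adventitial genes were also higher than in the wide gate, but 0 of 6 markers compared were at least 2-fold higher than in the first alveolar gate. Of 6 adventitial markers compared with the wide gate, 5 were at least 2-fold higher in members in all 4 libraries (Col14a1, Cd248, Ccl11, Serpinf1 and Col15a1). Of 8 compared with the adventitial gate, 7 were at least 2-fold lower, the same 5 with Dpp4 and Adh7. That gate required Pi16 and the rule barred Pi16 from members. The choice of cells thus shapes this gap and that of Dcn, given next. Dcn encodes decorin, a proteoglycan that binds collagen fibrils. It stood at 1989 and 2066 CPM in the BPTES members and 4600 and 2324 CPM in the DMSO members, against 77.6 to 198 CPM in the wide gate and 8681 to 10778 CPM in the adventitial gate. DMSO replicate 1 was the highest of the 4 libraries, and no library overlapped either gate.

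The member set was not pure. At least 3 of the 9 adventitial markers were present in 30.7% and 30.6% of BPTES members and 41.7% and 27.1% of DMSO members. At least 3 smooth muscle markers were present in 17 and 46 BPTES members and 18 and 14 DMSO members. At least 3 mesothelial markers were present in 0 and 0 BPTES members and 21 and 2 DMSO members. With cells carrying 3 pericyte, endothelial or leukocyte markers, or 2 of Epcam, Krt8 and Cdh1 of the epithelium, counted too, 31 and 56 BPTES members and 45 and 24 DMSO members carried such markers of another type (10.5%, 13.5%, 14.4% and 7.06%). Leaving them out gave 1207 members, and leaving out those with 3 adventitial markers too gave 839. Both smaller sets were chosen after the data had been seen.

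Of the defining markers, Wt1 of the mesothelium stood at 0.274 and 7.56 CPM in the BPTES members but 162 and 8.37 CPM in the DMSO members. Mesothelial markers summed to 69.97 and 70.4 against 329.7 and 89.3 CPM. Smooth muscle markers summed to 917 and 1708 against 305 and 849.6 CPM, so that both BPTES libraries lay above both DMSO libraries. Leukocyte markers summed to 20.2 to 27.7 CPM and endothelial markers to 17.0 to 24.97 CPM over the 4 libraries. Surfactant genes and other epithelial markers summed to 1077 and 3004 against 2139 and 226 CPM, in no order of treatment. Fold changes of all 7 were above 0 with BPTES over DMSO (median 0.85 on the log2 scale), none at an unadjusted p under 0.05, and in the set of 1207 members 3 of 4 tested were higher at an unadjusted p under 0.05, beside 3.11% of all genes. At least 3 of those epithelial markers had a UMI in 38.5% and 35.2% of BPTES members and 7.37% and 21.2% of DMSO members, with both BPTES libraries above both DMSO libraries. These cells were kept in all sets unless they also held 2 of Epcam, Krt8 and Cdh1, and the part of epithelial RNA in the results was not tested. Ptprc and Cdh5 were at 0 by the rule.

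**Figure D2:**
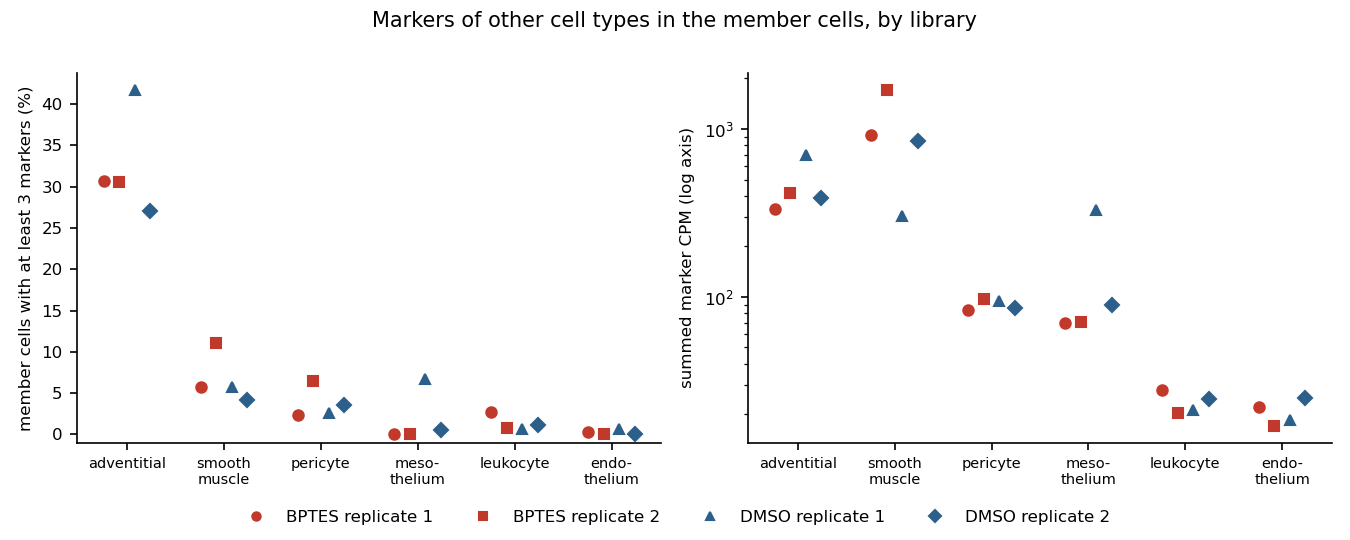
Left, the percentage of member cells with at least 3 markers of each other cell type. Right, the summed CPM of those markers (log axis). Each point is 1 library, and DMSO replicate 1 is the highest for adventitial and mesothelial markers, while BPTES replicate 2 is the highest for smooth muscle and pericyte markers.

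Genes outside the rule that led the members were named by the lowest of their 4 ratios to the first alveolar gate. The 25 that led had lowest ratios of 2.85 to 15.4, and all 25 were also higher in members than in the wide gate in every library. Sema3d, a secreted semaphorin that guides axons and vessels, stood at 132 to 202 CPM in members and 2.74 to 4.79 CPM in the wide gate. Col28a1, a collagen known from peripheral nerve, stood at 55.2 to 81.8 CPM in members, 1.15 to 2.66 CPM in the wide gate, 6.74 to 21.0 CPM in the adventitial gate and 10.3 to 14.7 CPM in the peribronchial gate. No library of those 3 gates reached the members for Col28a1.

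Nlgn1, a neuroligin known from synaptic contacts, stood at 127 to 184 CPM in members and 8.30 to 10.1 CPM in the wide gate. Shisa9, an auxiliary protein of AMPA receptors, stood at 86.5 to 108 against 2.12 to 5.01 CPM. The protocadherin Pcdh7 stood at 311 to 441 against 10.7 to 21.0 CPM, and Pcdh9 was also among the 25. For each of Nlgn1, Shisa9 and Pcdh9 the range in the adventitial gate overlapped or passed that of members (110 to 156, 46.1 to 112 and 161 to 189 CPM, with 88.2 to 154 CPM for Pcdh9 in members). The others named were Vwc2, a secreted BMP antagonist, Cpxm2, Plce1, Ildr2, Gpr39, Mpp6, Ace, the angiotensin-converting enzyme, the glypican Gpc6, Gm12840, Crispld1, Ahnak2, Tmeff2, 6530403H02Rik, Gpnmb, Dcn, Pawr and 3 muscle genes. Cpxm2 shares its strand and span with Fgfr2, and Tmeff2 with Gm28322, so their reads may be split by the counting.

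The muscle genes were Actc1, Myh11 and Mrvi1. Actc1, the actin of heart muscle, had the highest lowest ratio of all, 15.4, at 80.0 and 161 against 32.6 and 66.8 CPM in members. In the 1207 members without markers of another type it stood at 0 to 0.216 CPM, and Myh11, the smooth muscle myosin that is itself 1 of those markers, at 0.620 to 11.8 CPM. In that set, which leaves out cells with markers of any of the other types, neither was higher than in the first alveolar gate in every library. Sema3d (132 to 201 CPM), Col28a1 (64.4 to 82.8 CPM), Nlgn1 (141 to 198 CPM) and Shisa9 (90.1 to 103 CPM) kept their levels in the same set.

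Some genes followed the 5 genes over the 4 libraries and 5 gates, 20 points that share libraries and include the members, whom the rule chose on those genes. The highest Spearman correlations with the summed level of the 5 genes, as a description, were those of Man2a1 (0.96), an enzyme of N-glycan trimming, 3632451O06Rik (0.95), Gch1 (0.94), which starts tetrahydrobiopterin synthesis, Shisa9 (0.94), Lgals3 (0.93), Clec11a (0.92), Abi1 (0.92), Sema3d (0.92), Stk35 (0.92) and Gabpb1 (0.92). Man2a1 stood at 1157 and 968 CPM in BPTES members and 697 and 1135 CPM in DMSO members, against 270 to 474 CPM in the wide gate.

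Levels are given next by the number of rule genes detected in a cell, as a description, since most of these genes had been named from the same cells. Sema3d averaged 1.58 CPM in cells with 0 genes, 37.8 CPM with 2, 96.1 CPM with 3 and 282 CPM with all 5, over the 4 libraries. Col28a1 averaged 0.301, 11.3, 36.9 and 147 CPM at the same steps. Clec11a, a secreted factor known as osteolectin, averaged 5.16, 35.1, 75.2 and 153 CPM. Dcn went up and then down, from 85.6 CPM at 0 genes to 3204 CPM at 3 genes and 1594 CPM at 5. Actc1 went from 2.48 to 141 and 0 CPM. The cells with all 5 genes thus held less Dcn and Actc1 on average than those that just passed, and for Dcn the libraries ranged from 2185 to 6056 CPM at 3 genes and from 1367 to 1941 CPM at 5 genes, with no overlap. Clec11a, C4b, Mgp and Lpl were singled out after their values had been seen.

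Among matrix genes, Mgp, which encodes the matrix Gla protein that inhibits calcification, stood at 19500 and 22541 CPM in BPTES members and 19590 and 19785 CPM in DMSO members. The wide gate had 5560 to 8283 CPM and the adventitial gate 13488 to 15750 CPM, so that no library of either reached the members. Mgp averaged 5131 CPM in cells with 0 rule genes and 24818 CPM in those with 5. C4b, a complement component, stood at 970 to 1119 CPM in members, 155 to 218 CPM in the wide gate and 947 to 1215 CPM in the adventitial gate. Lpl, the lipase that frees fatty acids from lipoproteins, stood at 253 to 307 CPM in members and 26.7 to 59.3 CPM in the wide gate.

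**Figure D3:**
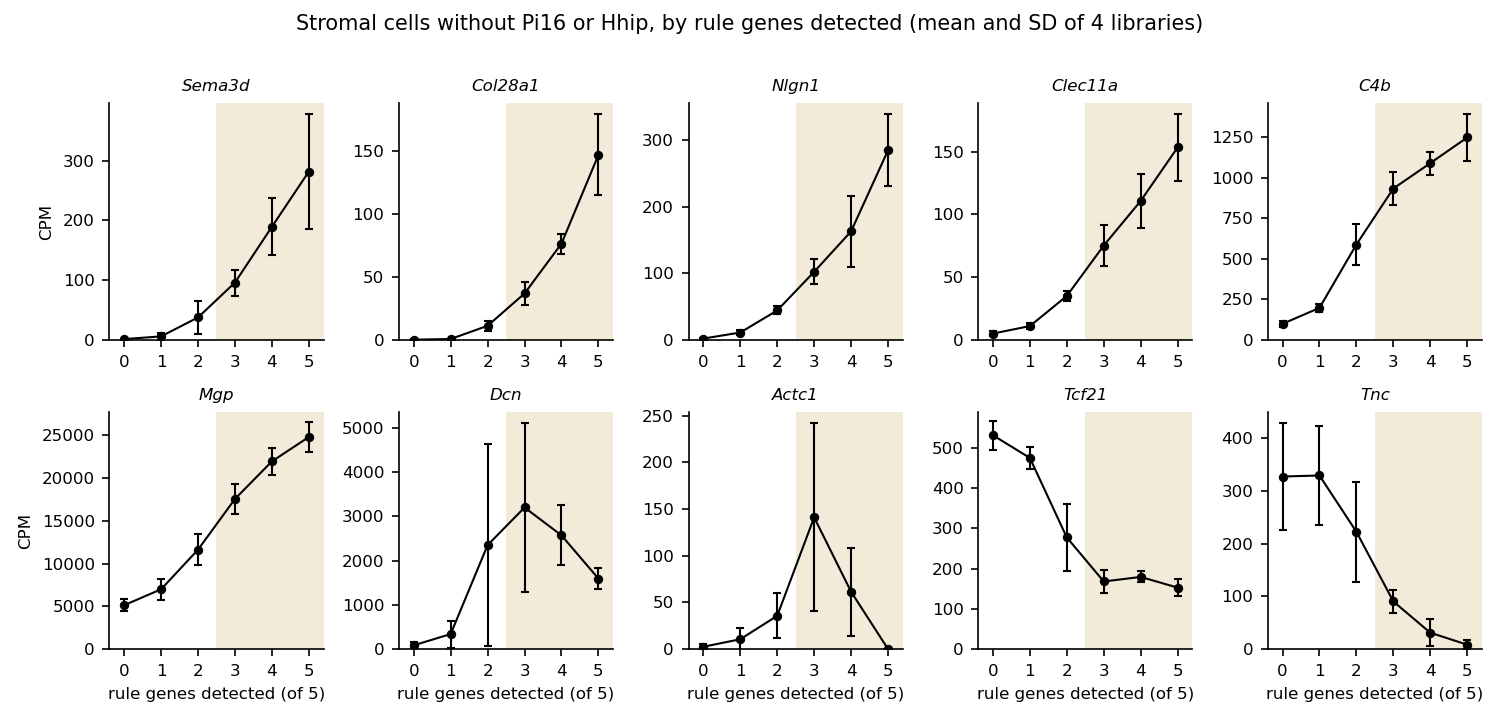
Mean and SD over 4 libraries of the CPM of 10 genes, by how many of the 5 rule genes a stromal cell without Pi16 or Hhip held. The shaded part marks the members. Sema3d, Col28a1, Nlgn1, Clec11a, C4b and Mgp go up to the right, Tcf21 and Tnc go down, and Dcn and Actc1 peak at 3 genes.

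The 10 genes named by the converse rule, lower in members, had lowest ratios of 2.46 to 6.48 and all were lower in members in every library against the wide gate too. Fam19a1 stood at 2.40 to 5.07 CPM in members against 49.5 to 61.9 CPM in the wide gate. Gucy1b1, a subunit of the nitric oxide receptor guanylate cyclase, stood at 18.5 to 37.5 against 79.1 to 114 CPM. Mapt, the microtubule protein tau, stood at 54.7 to 86.6 against 337 to 540.5 CPM. The rest were Tnc, which had helped to choose the gate, B530045E10Rik, Tmem117, Adap2, Pdzd2, St6galnac5 and Inpp4b.

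By function, the list of fibrillar collagens and their proteoglycans had 7 of 22 genes at least 2-fold higher than in the wide gate in all libraries, beside 4.77% of all genes, but 2 of 23 (Dcn and Lum) against the first alveolar gate, beside 1.19%. The 7 were Col6a6, Col12a1, Col14a1, Dcn, Lum, Fmod and Vcan, and 4 of 23 (Col8a1, Col14a1, Dcn and Vcan) were that much lower than in the adventitial gate. Col1a1 stood at 869.5 and 831 CPM in BPTES members and 1510 and 728 CPM in DMSO members, with DMSO replicate 1 apart from the others. Elastin, Eln, stood at 1195 and 1430 against 1516 and 1084 CPM, above the 542 to 681 CPM of the adventitial gate in every library. Among basement membrane genes Col4a3, Col4a4, Col4a6 and Col15a1 passed the 2-fold mark against the wide gate, 4 of 18 (Col4a4 and Col4a6 against the first gate), and Npnt was at least 2-fold lower.

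Signals to neighbouring cells also differed by gate. Of 21 alveolar niche growth factors, Wnt5a, Rspo1, Rspo3, Cxcl12 and Il33 were at least 2-fold higher in members than in the wide gate in every library and Wnt2, Vegfa, Angpt1 and Kitl were lower, beside 4.77% of all genes higher and 2.05% lower. Against the first alveolar gate 0 of 21 were higher and 1, Kitl, was lower, beside 1.19% and 0.46% of all genes. The same shares stand beside the counts of the lists that follow. Cxcl12, a chemokine that holds leukocytes and progenitors, stood at 224 and 236 against 286 and 234 CPM, and at 28.4 to 46.6 CPM in the wide gate. Hgf, the hepatocyte growth factor, and Bmp5 were at least 2-fold higher in members than in the adventitial gate. Of 6 GABA receptor and handling genes compared, Gabrg3 and Gabre, 2 other subunits of the GABA-A receptor, were higher than in the wide gate, with 9.75 to 17.1 CPM and 18.2 to 37.5 CPM in members. Against the adventitial gate 0 of 6 were at least 2-fold higher and 0 lower, beside 1.43% and 1.8% of all genes. Of 18 glycogen genes none was that much higher than in the wide gate and Gbe1 was lower.

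Wnt genes included the secreted inhibitors Sfrp1 and Sfrp2 and the receptor Fzd2 among 4 of 20 higher than in the wide gate (these 3 also than in the first gate), while Wnt2, Znrf3 and Notum were lower. Notum, an enzyme that inactivates Wnt proteins, stood at 1.68 to 4.66 CPM in members against 19.9 to 28.7 CPM. Sfrp2 stood at 1.23, 5.83 and 3.02 CPM in 3 libraries and 70.1 CPM in DMSO replicate 1. Hedgehog targets and receptors Gli1, Cdon and Gas1 were higher than in the wide gate, 3 of 8, and 0 of 8 were higher than in the first alveolar gate. Of the lipid and retinoid list Lpl, Rbp4, Aldh1a2 and Cyp26b1 were higher and Plin2 and Pparg, known from lipid-storing fibroblasts, lower than in the wide gate, of 19, and 0 of 19 differed by that much from the first alveolar gate. Against the adventitial gate 0 of 24 Wnt and 0 of 9 hedgehog genes were that much higher in members, beside 1.43% of all genes. Of 20 lipid and retinoid genes 0 were higher in members than in that gate. Lgr5, Notum, Dkk2, Cdon and Aldh1a3 were at least 2-fold lower in members, beside 1.8% of all genes. Of 5 fibrotic fibroblast markers compared, Col12a1 was that much higher than in the wide gate and 0 were lower. Against the first alveolar gate 0 were higher and Spp1 was lower. The median log2 ratio of this list to the wide gate was 1.28, beside -0.098 for all genes. Cthrc1, a marker of the same list, stood at 0 to 4.57 CPM. Cartilage and Schwann cell markers summed to 6.16 to 33.4 CPM and 3.15 to 6.61 CPM.

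The 839 members without other or adventitial markers were described by the same genes. Sema3d stood at 121 to 158 CPM there, Col28a1 at 60.2 to 74.2 CPM, Shisa9 at 84.0 to 113 CPM, Lpl at 265 to 314 CPM and Mgp at 17557 to 21478 CPM. Ppp1r3a stood at 185 to 215 CPM. Dcn stood at 704 to 1030 CPM, still above the wide gate in every library, and Npnt at 1381 to 1622 CPM, still below it. No cell type of the marker lists was given to these cells, and they are called here by the genes of the rule.

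The first question on treatment was whether BPTES changed how many such cells there were. Members were 9.20% and 11.2% of stromal cells in the BPTES libraries (95% exact binomial intervals 8.22% to 10.2% and 10.2% to 12.3%) and 8.48% and 9.03% in the DMSO libraries (7.60% to 9.43% and 8.13% to 9.99%). Intervals cover counting error only. The group means were 10.2% ± 1.42 (SD, n = 2) and 8.76% ± 0.386 (SD, n = 2), and the groups did not overlap, since the lower BPTES library lay just above the higher DMSO library. The exact two-sided permutation test over libraries gave p = 0.333, the smallest that 2 against 2 libraries can give.

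The groups also did not overlap with at least 2 of the 5 genes required (means 17.8% and 16.5%) or at mitochondrial limits of 5% and 20%. They overlapped once cells were brought to equal depth. After each cell was thinned to 5000 UMIs the shares were 6.38% and 8.52% against 5.61% and 7.36%, with 7 to 13 members per library left out as shallower. Of all kept barcodes the shares were 1.83% and 2.50% against 2.03% and 1.65%, also overlapping. With at least 4 of the 5 genes required they were 4.54% and 6.27% against 3.83% and 4.91%. No difference in share beyond the spread of libraries was shown.

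**Figure D4:**
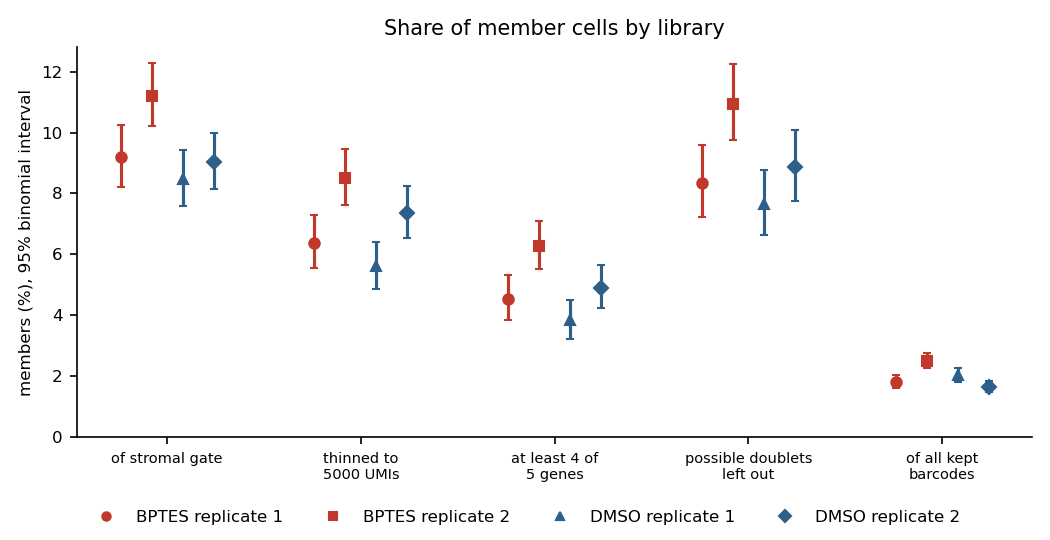
Members as a percentage, 1 point per library, with 95% exact binomial intervals that cover counting error only. From left to right the denominator is the stromal gate, the same after thinning to 5000 UMIs, with at least 4 genes, without possible doublets, and all kept barcodes. Of these 5 settings, the groups overlap in each but the first.

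The second question was whether BPTES changed the RNA of the members. The counts of all members of a library were summed, and edgeR's quasi-likelihood test with Benjamini-Hochberg adjustment was run on 13283 genes, with Col1a2 and the 5 genes of the rule left out. No gene passed an adjusted p of 0.05 (0% of genes tested). Unadjusted p was under 0.05 for 1021 genes, 381 higher (2.87%) and 640 lower (4.82%) with BPTES. The lowest adjusted p was 0.178. DESeq2 called 31 genes, 9 higher and 22 lower. The count moved with single libraries: without DMSO replicate 2 edgeR called 522 genes, without DMSO replicate 1 it called 58, and without either BPTES library 0. In those fits the group left with 1 library is assumed to vary like the other.

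In summed counts, fewer cells of a kind among the members and less RNA per cell cannot be told apart. Values in the 1207 members without markers of another type are therefore given for some of the lists and genes below. In this fit no gene of any list was called. Other edgeR settings did call list genes. With all 4 libraries and the filter on low counts the replicate block called Areg, Upk3b and Col6a5, the looser rule of at least 2 genes called Upk3b, and the set without possible doublets called Rarb. More were called with no filter on low counts or with a DMSO library left out. Both BPTES libraries lay above both DMSO libraries for 14.4% of all genes tested and below for 25.1%.

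Interferon response genes were the list with the most genes on one side. Interferons induce antiviral enzymes, GTPases and antigen processing. Of 41 tested, 17 had an unadjusted p under 0.05, all lower with BPTES, beside 4.82% of all genes. Both BPTES libraries were below both DMSO libraries for 26 of 41 (63.4%, beside 25.1% of all genes) and above for 0 (beside 14.4%). The median log2 fold change of the list was -0.42, beside -0.0060 for all genes tested. With 1 library left out the median lay between -0.62 and -0.31, and the count of lower genes was 3 without BPTES replicate 2 (1.62% of all genes) and 26 without DMSO replicate 2 (9.98% of all genes). edgeR called 7 of the list, all lower, without DMSO replicate 2 (2.84% of all genes) and 10, all lower, with no filter on low counts (1.77% of all genes).

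Iigp1 encodes an immunity-related GTPase. It stood at 191 and 140 CPM in BPTES members and 225 and 291 CPM in DMSO members, with a log2 fold change of -0.60 (SE 0.20, adjusted p = 0.621). Irgm1, another of that family, stood at 22.5 and 22.0 against 37.0 and 34.3 CPM (log2 fold change -0.64). Ddx60, a helicase induced by interferon, stood at 21.2 and 13.2 against 49.5 and 36.8 CPM (log2 fold change -1.29), and was the 1 gene of the list that DESeq2 called (adjusted p = 0.0166). Irf1, a transcription factor of the response, stood at 197 and 186 against 236 and 243 CPM (-0.28), and Ifi27l2a at 146 and 116 against 176 and 217 CPM (-0.54). Groups did not overlap for any of these 5, of which Ddx60 and Irgm1 were singled out after their values had been seen. For B2m, the most abundant of the list and the light chain of MHC class I, the groups overlapped, at 1694 and 1400 against 1630 and 1639 CPM. H2-D1, a class I heavy chain, stood at 631 and 536 against 672 and 660 CPM, with both BPTES libraries below both DMSO libraries by a small margin.

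The median of the interferon list was nearer 0 in the smaller sets of members. In the 1207 members the list's median was -0.31 with 11 of 39 genes lower at an unadjusted p under 0.05 (5.79% of all genes), and in the 839 it was -0.23 with 9 of 37 (5.26%). In the first alveolar gate the median was -0.22 with 13 of 41 lower (6.67% of all genes), and in the wide gate -0.13 with 8 of 42 (10.1%). The difference of the BPTES effect between members and the first alveolar gate had a median of -0.11 over the list, with 3 of 42 genes lower at an unadjusted p under 0.05 (1.65% of all genes), 3 higher and no called gene. Against the wide gate the median difference was -0.34, with 11 of 42 lower (2.98% of all genes), 1 higher and again no called gene. So no gene of the list was shown to respond differently in these cells.

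**Figure D5:**
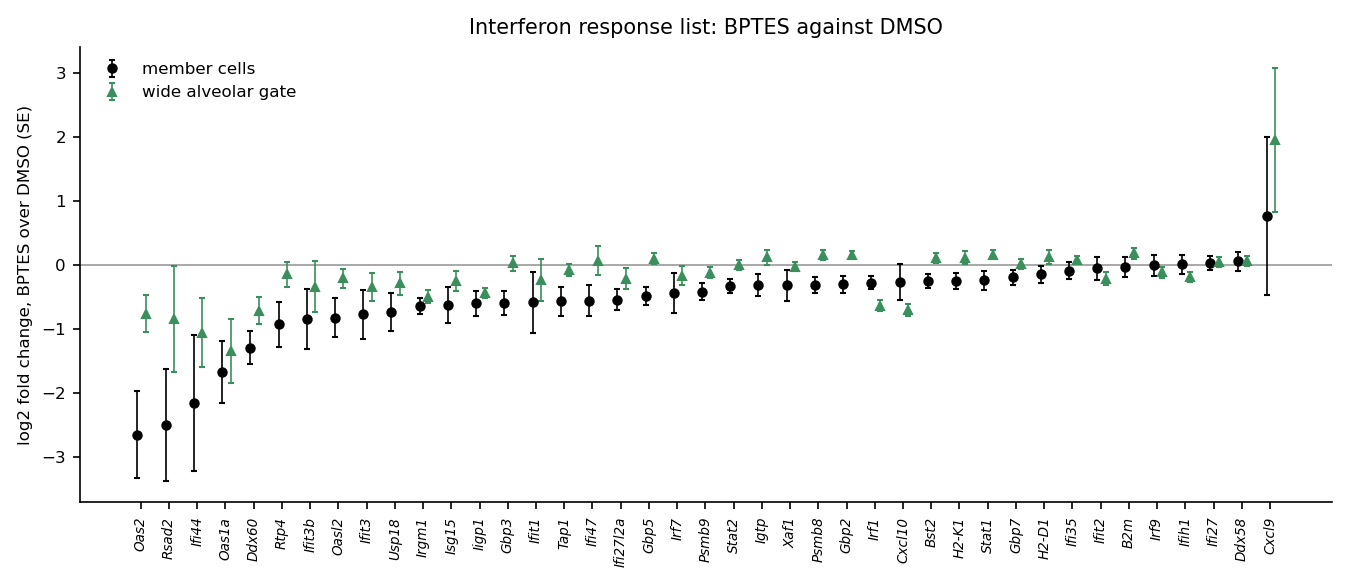
log2 fold change, BPTES over DMSO, with SE, of the 41 tested genes of the interferon list, ordered by their value in members (black circles), with the wide alveolar gate beside them (green triangles). In members 37 of 41 values lie below 0, and no gene passed an adjusted p of 0.05.

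Glutamine metabolism, the pathway BPTES acts on, was the next list. Of 32 tested genes 1 had an unadjusted p under 0.05, Slc38a1, a glutamine carrier, which was lower with BPTES (4.82% of all genes), and the list's median was 0.075. Both BPTES libraries were above both DMSO libraries for 6 of 32 and below for 8, shares of 18.8% and 25%. Of all genes the shares were 14.4% and 25.1%. Glul, glutamine synthetase, stood at 141 and 136 CPM in BPTES members and 171 and 153 CPM in DMSO members (log2 fold change -0.18, SE 0.11, adjusted p = 0.703). Of 30 genes of the ATF4 response to amino acid shortage, 1 had an unadjusted p under 0.05, higher (2.87% of all genes), and the median was -0.037. Both BPTES libraries were above both DMSO libraries for 8 of 30 (26.7%, beside 14.4% of all genes). They were below for 7 (23.3%, beside 25.1%). RNA levels do not measure the activity of enzymes.

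That gene was Gdf15, a stress-induced cytokine, which stood at 15.2 and 18.1 CPM in BPTES members and 1.56 and 3.84 CPM in DMSO members (log2 fold change 2.69, SE 0.39, adjusted p = 0.427). DESeq2 called it (adjusted p = 0.00011). Without markers of another type it stood at 13.9 and 4.10 against 1.05 and 2.09 CPM (log2 fold change 2.51), so that BPTES replicate 1 stood apart and BPTES replicate 2 lay closer to the DMSO libraries. In the first alveolar gate it was -0.99. The difference between both effects was 3.65 and did not pass in the main edgeR fit (adjusted p = 0.493). Against the wide gate the difference was 2.91 and did not pass either (adjusted p = 0.267). With no filter on low counts edgeR called the difference from the first gate, as 1 of 39 genes called among 22539. Areg, an EGF receptor ligand, stood at 24.9 and 17.3 against 1.44 and 0.412 CPM, and was called by DESeq2 (adjusted p = 2.1e-12), but without those cells it stood at 0 to 2.17 CPM in every library. Gdf15 and Areg were singled out after their values had been seen.

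Senescence markers were read in the same way. Inhibitors of glutamine breakdown have been described as agents that kill senescent cells. Cdkn2a, which encodes p16, was near absent from members, at 0 and 0.455 CPM with BPTES and at 1.32 and 0.412 CPM with DMSO, too few UMIs for a test. Cdkn1a, which encodes p21, stood at 180 and 169 against 138 and 189 CPM (log2 fold change 0.14, SE 0.18, adjusted p = 0.854), with overlapping groups. Of 36 genes tested in the senescence and secretory list 3 were higher and 1 lower at an unadjusted p under 0.05 (2.87% and 4.82% of all genes), with a median of 0.015. Both BPTES libraries were above both DMSO libraries for 8 of 36 (22.2%, beside 14.4% of all genes) and below for 4 (11.1%, beside 25.1%). Gdf15 and Areg belong to this list.

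Fold changes of 4 type IV collagen chains had opposite signs by pair, again with no call. Col4a1 and Col4a2 form the common trimer of basement membranes and Col4a5 and Col4a6 belong to a rarer one. Col4a1 stood at 510 and 535 CPM in BPTES members and 379 and 432 CPM in DMSO members (log2 fold change 0.41, SE 0.13). Col4a2 stood at 329 and 383 against 258 and 271 CPM (0.47, SE 0.13). Col4a5 stood at 269 and 251 against 377 and 340.0 CPM (-0.42, SE 0.11), and Col4a6 at 140 and 131 against 208 and 181 CPM (-0.47, SE 0.11). Adjusted p was 0.621 for each of the 4. The values in the first alveolar gate had the same signs (0.57, 0.65, -0.44 and -0.70), and groups in members did not overlap. These 4 were singled out after their values had been seen. Of 19 basement membrane genes tested they were the only ones at an unadjusted p under 0.05 by edgeR. Of them 2 were higher and 2 lower, beside 2.87% and 4.82% of all genes. Col4a3 and Col4a4 of the same list did not reach that p. The list's median was -0.052. Both BPTES libraries were above both DMSO libraries for 3 genes and below for 5 (15.8% and 26.3%, beside 14.4% and 25.1% of all genes).

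Growth factors and matrix enzymes gave single genes, of which Adamts12 was singled out after its values had been seen. Hgf stood at 141 and 183 CPM in BPTES members and 266 and 255 CPM in DMSO members (log2 fold change -0.63, SE 0.15, adjusted p = 0.621), and at -0.83 without markers of another type. Fgf10, which sustains alveolar epithelium, stood at 241 and 165 against 254 and 362 CPM (-0.56, SE 0.25, adjusted p = 0.658). Of 25 niche factors tested 6 were lower and 1 higher at an unadjusted p under 0.05 (4.82% and 2.87% of all genes), and both BPTES libraries were below both DMSO libraries for 9 (36%, beside 25.1% of all genes). Adamts12, a matrix metalloprotease, stood at 77.4 and 77.9 against 151 and 133 CPM (-0.82, SE 0.11, adjusted p = 0.375 by edgeR and 0.000811 by DESeq2). In the first and wide alveolar gates the log2 fold change of Adamts12 was -0.58 and -0.56. For Fgf10 it was -0.56 and -0.16, and for Hgf 0.115 and -0.17. No difference between members and either gate was called for these genes. Fibrillar collagens and proteoglycans had 3 of 23 genes lower and 0 higher at an unadjusted p under 0.05 (4.82% and 2.87% of all genes), with a median of -0.097. Both BPTES libraries were below both DMSO libraries for 5 of 23 (21.7%, beside 25.1% of all genes).

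Several genes were lower with BPTES in value but highest in DMSO replicate 1. Of these, Il33 and Col14a1 are given, singled out after their values had been seen. Il33, an alarmin, stood at 22.3 and 26.1 CPM in BPTES members and 98.0 and 34.0 CPM in DMSO members, and Col14a1 at 135 and 141 against 272 and 162 CPM, each highest in the library with most adventitial and mesothelial markers. Ctgf, a matricellular target of TGF-beta, stood at 413 and 458 against 208 and 260 CPM (log2 fold change 0.94, SE 0.16, adjusted p = 0.611). Smooth muscle markers were also higher in both BPTES libraries, and without cells of other types its value was 0.60. What part the makeup of the member set had in the values of Il33, Col14a1 and Ctgf was not tested. DESeq2 called Ctgf in all members (adjusted p = 0.000367). In the 839 members without other or adventitial markers the log2 fold change was -0.43 for Il33 (-1.39 in all members), -0.013 for Col14a1 (-0.60 in all members) and 0.44 for Ctgf. In the first and wide alveolar gates it was -0.31 and 1.09 for Il33, -0.16 and 0.34 for Col14a1, and 0.47 and 0.18 for Ctgf.

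Ebf2 and Pkhd1l1 were, with Areg, among the genes at the lowest adjusted p of 0.178 by edgeR. Ebf2, a transcription factor of mesenchymal progenitors, stood at 6.85 and 7.74 CPM in BPTES members and 33.7 and 43.2 CPM in DMSO members (log2 fold change -2.34, SE 0.20). It was the 1 gene called by edgeR in the 1207 members without markers of another type (adjusted p = 0.0475; 0.00779% of genes tested). Ebf2 stood at 103 to 348 CPM in the adventitial gate, and at 0 to 2.84 CPM in the 839 members without adventitial markers. Pkhd1l1 stood at 1.64 and 0.638 against 29.0 and 17.7 CPM (-4.39), and without markers of another type at 1.70 and 0.648 against 3.88 and 5.82 CPM (-2.07). DESeq2 called both in all members (adjusted p = 5.5e-11 for Ebf2 and 2.1e-12 for Pkhd1l1). Both were singled out after their values had been seen.

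The effect of BPTES was also set against that in alveolar cells. In the first alveolar gate 6 of 12919 genes were called, all lower (0.0464%): Wt1, Adamtsl1, Pparg, Bicd1, Cdon and Serpinf1. Without BPTES replicate 1 the count was 446, without BPTES replicate 2 it was 346, without DMSO replicate 1 it was 3 and without DMSO replicate 2 it was 19. In the wide gate 14 of 16111 genes were called (0.0869%). Of the 6 genes called in the first gate, Wt1 is on the mesothelial and Serpinf1 on the adventitial marker list. Cells with markers of other types were not left out of that gate. Its 4 tested mesothelial markers had a median log2 fold change of -2.72, beside -2.28 in members. Its median depth was 11521 to 17259 UMIs per library, against 20690.5 to 25865 in members. The part of either in these results was not tested. The difference between the effect in members and in the first alveolar gate, fitted in the same model with the library as a term, was called for 0 of 13797 genes by edgeR, with 525 at an unadjusted p under 0.05 (3.81%). DESeq2 was not run on that difference. With no filter on low counts edgeR called the difference for 39 of 22539 genes, Gdf15 among them. In the main fit no effect of BPTES was shown to be particular to the members.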

How the data were processed

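The authors deposited 1 matrix per library of UMI counts per gene and barcode, made with Cell Ranger 8.0.1 per the file headers and on mm10 per the submitters' processing notes. No other normalization was applied to the deposited counts. Each matrix held 31054 features, 16440 to 21986 barcodes and 260346570 to 342107092 UMIs. The rule's limits (500 genes and 1000 UMIs or more, 10% mitochondrial UMIs or less) left 15349 to 20549 per library with a median of 14284 to 16184 UMIs. Pairs of libraries shared 65 to 104 kept barcode sequences. The 2 libraries of a group differed beyond counting noise (chi-square per degree of freedom 9.23 and 16.9). Doublets were not called, but an alternative left out members with endothelial, epithelial or leukocyte UMIs or with over 2 times their library's median UMIs.

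Counts were summed per library and gate and tested with edgeR 4.0.16 (TMM, filterByExpr, quasi-likelihood, adjusted p under 0.05), with DESeq2 1.42.0 as an alternative, in R 4.3.3. The SE printed with an edgeR fold change is its absolute log2 value divided by the square root of the quasi-likelihood F statistic. The edgeR script was tested on simulated data. Shares were compared by an exact permutation test in scipy 1.17.1. Loci are from GENCODE M21 on GRCm38, the same assembly as mm10. Members, gates and the 35 gene and marker lists were chosen with earlier results of these data known. Genes named against the alveolar gate were the 25 with at least 20 CPM in members of every library and the highest lowest ratio, and the 10 by the converse rule. Some list genes were named by level, and others are said to be singled out. Adamts12, Il33 and Col14a1 were among those singled out after their values had been seen. One result of the glutamine list is not reported here.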

Additional observations from a re-analysis of the deposited data

How the results depend on the processing

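For BPTES against DMSO in members, edgeR called 0 genes, and also 0 at mitochondrial limits of 5% and 20%, with at least 4 of the 5 genes, with at least 5000 UMIs per cell and without either BPTES library. It called 5 genes with at least 2 of the 5 genes (Upk3b, Cldn15, Pcdh15, Ebf2 and Pkhd1l1), 7 with possible doublets left out, 516 with no filter on low counts, 1 without members carrying markers of another type (Ebf2) and 1 without adventitial markers too (Cxcl13). DESeq2 called 31. Leaving out each library gave 0 to 522. With the replicate number as a block 14 genes were called. No label says whether same-numbered libraries share a source, so they were not taken as pairs. Deviations of same-numbered libraries correlated at -0.086 over genes, a single value that cannot decide whether they are pairs. In the first alveolar gate 6 genes were called, 7 with the block, 3 (Upk3b, Kcnd2 and Pkhd1l1) to 446 with each library left out and 14 in the wide gate. The difference between both effects was called for 0 genes, for 39 with no filter, for 0 to 1 with each library left out (Dnah12, Gm26870 or Saa3) and for 0 in both fits with the wide gate. The cause of these moves was not tested, except that fits without a library have fewer samples. The share of members among stromal cells was higher in BPTES by 1.45 percentage points and by 0.963 to 1.47 under the other settings. It was higher by 0.440 to 2.45 with each library left out. Of all kept barcodes the share was higher by 0.321 points, so the sign was the same throughout. Genes at least 2-fold higher in members than in the alveolar gate numbered 111, and 452 with the wide gate. Genes lower numbered 43, then 194 with the wide gate and 76 without members carrying other markers. Of 21 genes whose fold change was recomputed, 20 kept their sign under every setting that gave them a value, since Areg and Ebf2 were not tested in some of the smaller sets. With each library left out Cdkn1a ran from -0.093, without DMSO replicate 1, to 0.41. Cdkn1a was at -0.051 with at least 4 genes. The genes named here were chosen after their values had been seen.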
